A study of Homo sapiens with 18 samples.

Results

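The 60 genes described here encode nucleolar factors that assemble ribosomes. They were chosen by name from a list of genes of the small-subunit processome, the core of small nucleolar ribonucleoproteins (snoRNPs) and large-subunit assembly, and all 60 were found by symbol among the 60623 genes of the deposited gene table. All 60 also passed the filter on low counts, so none was lost to it. RNA was sequenced from 18 libraries of HEK-293E cells, a single line of human embryonic kidney origin, in 6 groups of 3. Starved cells were kept overnight in DMEM with 0.1% FBS, and fed cells were then returned to regular growth medium with 10% FBS for 1 h or 4 h. Each of the 3 feeding states was sampled both without Torin1 and in its presence. Torin1 blocks the catalytic site of mTOR and thus acts on both complexes that contain this kinase. No group was kept in full medium throughout, so starvation is the baseline of each feeding comparison. How much Torin1 was used, for how long, and whether it was added before or with the medium is not given in the sources used here. Nothing in the labels ties the replicates to separate cultures. The p-values below therefore rest on the spread among libraries of a group, which may be technical.

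Ribosomes are built in the nucleolus. The precursor of the 18S, 5.8S and 28S rRNAs is transcribed by RNA polymerase I, modified by snoRNPs at sites chosen by guide RNAs, and folded and cut while assembly factors join and leave. The early complex around the small-subunit part of the precursor is the small-subunit processome, and a separate series of particles leads to the large subunit. The kinase mTOR complex 1 is known to promote ribosome production when nutrients and growth factors are present, which is the background to measuring these genes after starvation, feeding and Torin1. In the list, 3 genes encode box C/D snoRNP core proteins and 4 encode box H/ACA core proteins. A further 5 encode nucleolar chaperones and partners of RNA polymerase I, 19 encode processome components, 6 act in later steps and export of the small subunit, and 23 act on the large subunit.

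The promoters of 4 of the members with the largest changes are shown first so that their upstream DNA can be compared directly. These 4 genes did not move together under Torin1: in starved cells WDR75 (1.39) and MRTO4 (0.36) rose on the log2 scale, whereas UTP15 fell by 1.72 and NOP16 fell by 1.04. The windows cover the 250 bases before the transcription start in RefSeq, assembly GRCh38.p14, written 5′ to 3′ on the strand of the gene. WDR75 (chr2:189441224-189441473, plus strand) and MRTO4 (chr1:19251555-19251804, plus strand) were among the 3 members with the largest rise with 4 h of feeding. NOP16 (chr5:176388599-176388848, minus strand) and UTP15 (chr5:73565493-73565742, plus strand) were among the 3 members with the largest fall with Torin1 in 4 h fed cells. The capitals in NOP16 mark 2 overlapping copies of CCGGAAG, the core recognised by ETS transcription factors, on opposite strands, 19 to 13 and 16 to 10 bases before the start.
WDR75: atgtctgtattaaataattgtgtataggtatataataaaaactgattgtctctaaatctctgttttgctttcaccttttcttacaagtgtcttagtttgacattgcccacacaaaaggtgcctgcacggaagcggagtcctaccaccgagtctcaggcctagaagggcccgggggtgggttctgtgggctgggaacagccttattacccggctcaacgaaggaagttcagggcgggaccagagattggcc
MRTO4: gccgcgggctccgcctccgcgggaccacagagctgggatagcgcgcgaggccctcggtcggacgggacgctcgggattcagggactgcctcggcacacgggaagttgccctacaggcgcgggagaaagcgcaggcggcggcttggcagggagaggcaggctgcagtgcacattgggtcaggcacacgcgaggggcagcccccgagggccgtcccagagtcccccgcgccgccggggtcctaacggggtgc
NOP16: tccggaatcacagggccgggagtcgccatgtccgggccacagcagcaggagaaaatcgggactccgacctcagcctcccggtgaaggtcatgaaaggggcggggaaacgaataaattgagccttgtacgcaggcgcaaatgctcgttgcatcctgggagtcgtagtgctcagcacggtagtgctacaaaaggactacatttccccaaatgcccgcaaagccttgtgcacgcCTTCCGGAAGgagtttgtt
UTP15: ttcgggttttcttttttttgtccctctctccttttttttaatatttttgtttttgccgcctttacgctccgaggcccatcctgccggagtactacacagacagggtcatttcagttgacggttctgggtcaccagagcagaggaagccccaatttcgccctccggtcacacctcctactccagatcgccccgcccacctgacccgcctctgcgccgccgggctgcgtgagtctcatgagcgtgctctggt

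Promoter windows were matched for 52 of the 60 members, URB2 not among them, and 4 motifs were searched on both strands. CCGGAAG was found in 18 of the 52 windows (34.6%), against 15.3% of the 11718 windows of tested genes and 8.82% of all 27305 windows. CACGTG, the E-box bound by MYC and its relatives, was found in 8 windows (15.4%), those of EBNA1BP2, IMP4, NAT10, NOP10, SDAD1, UTP18, UTP20 and UTP4, against 8.82% of tested genes and 6.49% of all windows. The 10-base palindrome known as the BANP motif was found in 1 window, that of NOP14 (1.92%, against 0.768% of tested genes), and the 10-base core of the ZNF143 motif was found in none (0.529% of tested genes). None of the 4 motifs was found in the windows of WDR75, MRTO4 and UTP15 shown above. For the change with Torin1 in 4 h fed cells the median log2 fold change was -0.91 over the 18 members with CCGGAAG and -0.95 over the 34 without, and in starved cells it was -0.81 and -0.67. For CACGTG the medians were -0.89 over 8 members with it and -0.95 over 44 without in 4 h fed cells, and -1.10 and -0.67 in starved cells. For 4 h of feeding without Torin1 they were 0.06 with and 0.14 without CCGGAAG, and -0.09 with and 0.17 without CACGTG. These differences between members with and without a motif were not tested. A match is a description of the letters in the window and not a measured binding site.

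Library totals ranged from 10510680 to 13690036 counts, and 14413 to 15724 genes per library had at least 10 counts. Levels are given as CPM, that is counts scaled to a common library size with TMM factors (trimmed mean of M values). The share of counts from mitochondrial genes was 1.88% to 3.81%, with a mean of 2.23% in starved and 3.37% in 4 h fed cells. All 9 markers of the HEK-293 line were detected. Their summed level was 930.1 to 1169 CPM over the 9 libraries without Torin1 and 1412 to 1712 CPM over the 9 libraries with it, and in each feeding state 5 of the 9 were higher and 2 lower with Torin1. Summed over 7 fibroblast markers, the level was 10.7 to 43.6 CPM in starved, 9.38 to 29.9 CPM in 1 h fed and 8.40 to 15.0 CPM in 4 h fed cells. With Torin1 the same sum was 15.6 to 18.03, 15.3 to 18.6 and 16.3 to 37.0 CPM. FAP was at 0 in all 18 libraries, and COL1A2 and DCN were at 0 in the 4 h fed libraries without Torin1. Single libraries stood out for COL1A2 and COL3A1. Their levels were 6.90 and 10.6 CPM in starved replicate 1 and 4.75 and 5.51 CPM in 1 h fed replicate 2. In replicate 2 of the 4 h fed Torin1 group they were 5.56 and 5.49 CPM. In every other library each was at 1.124 CPM or less. Summed over 6 immune markers, the level was 1.40 to 5.62 CPM, with PTPRC and CD3E at or near 0. The part of these markers and of the mitochondrial share in the results below was not tested.

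Compared per kilobase of exon, the members spanned a wide range of levels in starved cells. NPM1, the histone-binding and ribosome-export chaperone nucleophosmin, stood highest at 702 CPM per kb. It was followed by NHP2 at 323 CPM per kb, NCL (nucleolin) at 280 CPM per kb and NOLC1, a snoRNP chaperone, at 202 CPM per kb. At the other end stood BMS1 at 7.29 CPM per kb, RCL1 at 6.01 CPM per kb and WDR75 at 4.65 CPM per kb. The lowest value of any member in any library was 14.6 CPM, for RCL1 in starved cells with Torin1, against a limit of 0.209 to 0.291 CPM that a count of 0 allows (3 counts, counting error only). No member was near that limit. Overlaps in GENCODE release 29 were counted with protein-coding, antisense, long intergenic non-coding, processed-transcript and processed-pseudogene entries only. Other types, such as small nucleolar RNA genes, were left out. By this count 29 members overlap a gene on the opposite strand and 8 overlap one on the same strand. Among the 29 are PES1, MRTO4, NOP16, UTP15 and WDR3, and UTP4 belongs to both sets. The sources used here do not say whether strand was used in counting. The counts of all overlapping members, named or not, may therefore include reads of a neighbour.

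Summed over all 60 members, assembly factor transcripts took up 1.43% ± 0.0277 (SD, n = 3) of counts in starved cells, 1.47% ± 0.0859 after 1 h of feeding and 1.53% ± 0.0150 after 4 h. With Torin1 the share was 1.03% ± 0.00710 in starved cells, 1.10% ± 0.0113 at 1 h and 1.04% ± 0.0293 at 4 h. The shares with and without Torin1 did not overlap in any feeding state: the highest with Torin1 was 1.12% and the lowest without it was 1.38%. NPM1 and NCL made up a large portion of these sums, so the plot of the shares also gives them without both genes. In bulk RNA, a change in every cell and a change in a part of the cells cannot be told apart. A share of counts is also relative to all other RNA in the library.

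**Figure D1:**
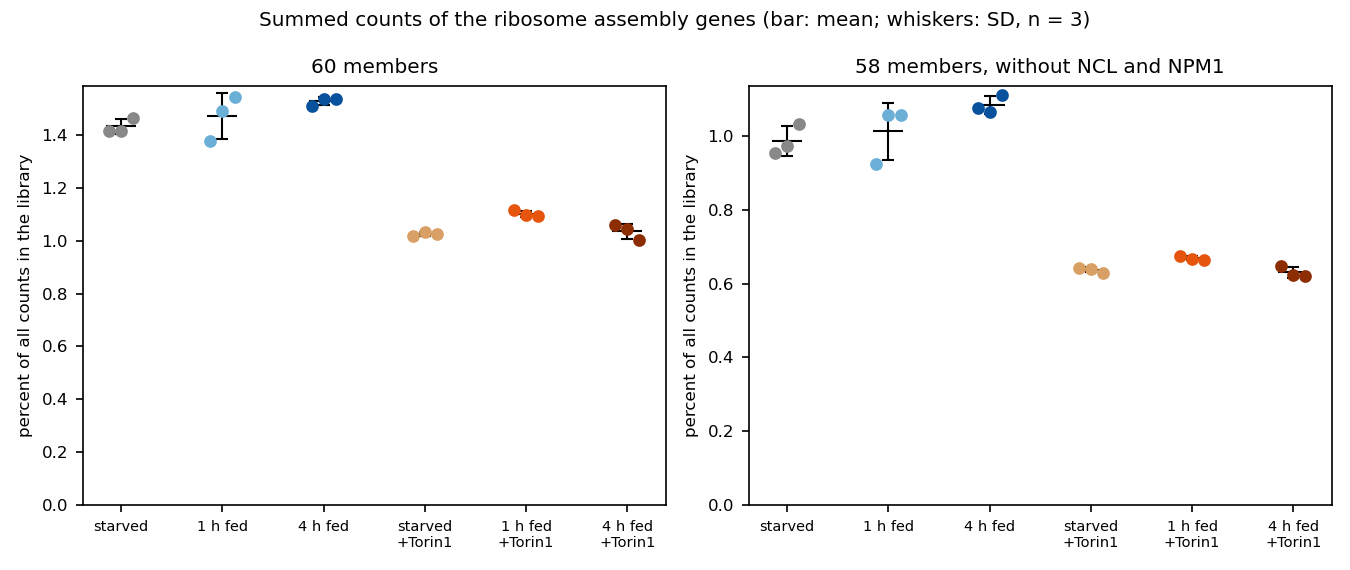
Percent of all counts in each library that came from the 60 ribosome assembly genes (left) and from the same genes without NCL and NPM1 (right), by group; each point is a library, the bar is the mean and the whiskers the SD of 3 libraries. The 9 libraries with Torin1 lie between 1.00% and 1.12% on the left, below the 9 libraries without it, which lie between 1.38% and 1.55%.

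One hour of feeding changed no member past the threshold. In the edgeR quasi-likelihood test with Benjamini-Hochberg adjustment over 16414 genes, 0 of 60 members were called at an adjusted p under 0.05, against 0.646% of all genes tested. At an unadjusted p under 0.05 there were 5 members, but the share of all genes at that level was not worked out. DESeq2 called 0 members. The members' log2 fold changes ran from -0.17 for NHP2, a box H/ACA core protein, to 0.32 for NOP56, a box C/D core protein (SE 0.09, edgeR adjusted p = 0.136). Their median was 0.06, beside 0.01 over all genes. Without the 1 h fed replicate 1, 3 members were called, DDX56, GNL3L and NOP56, all higher. The 3 marker members were at the starved level or near it after 1 h: WDR75 had a log2 fold change of 0.00, MRTO4 of 0.18 and URB2 of 0.19.

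Feeding for 4 h split the list. WDR75, PES1, MRTO4 and BMS1 rose more than 2-fold (such a called rise was seen for 8.21% of all genes tested), a further 21 members rose by less, 10 fell and 25 were not called. In the edgeR test 25 of 60 members were higher, against 23.2% of all genes tested, and 10 were lower, against 19.1%. The groups did not overlap for 30 members that lay higher at 4 h, against 26.1% of all genes, and for 11 that lay lower, against 22.9%. The median log2 fold change of the members was 0.17, beside -0.00 over all genes, and the central members lay between the quartiles -0.03 and 0.57. The rise was most frequent among large-subunit factors, of which 14 of 23 were higher and 1 lower (median 0.33). Of the 19 processome members 8 were higher and 5 lower (median 0.12), and of the 12 snoRNP proteins, chaperones and polymerase partners 1 was higher and 3 were lower. Whether the roles differed from one another was not tested.

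**Figure D2:**
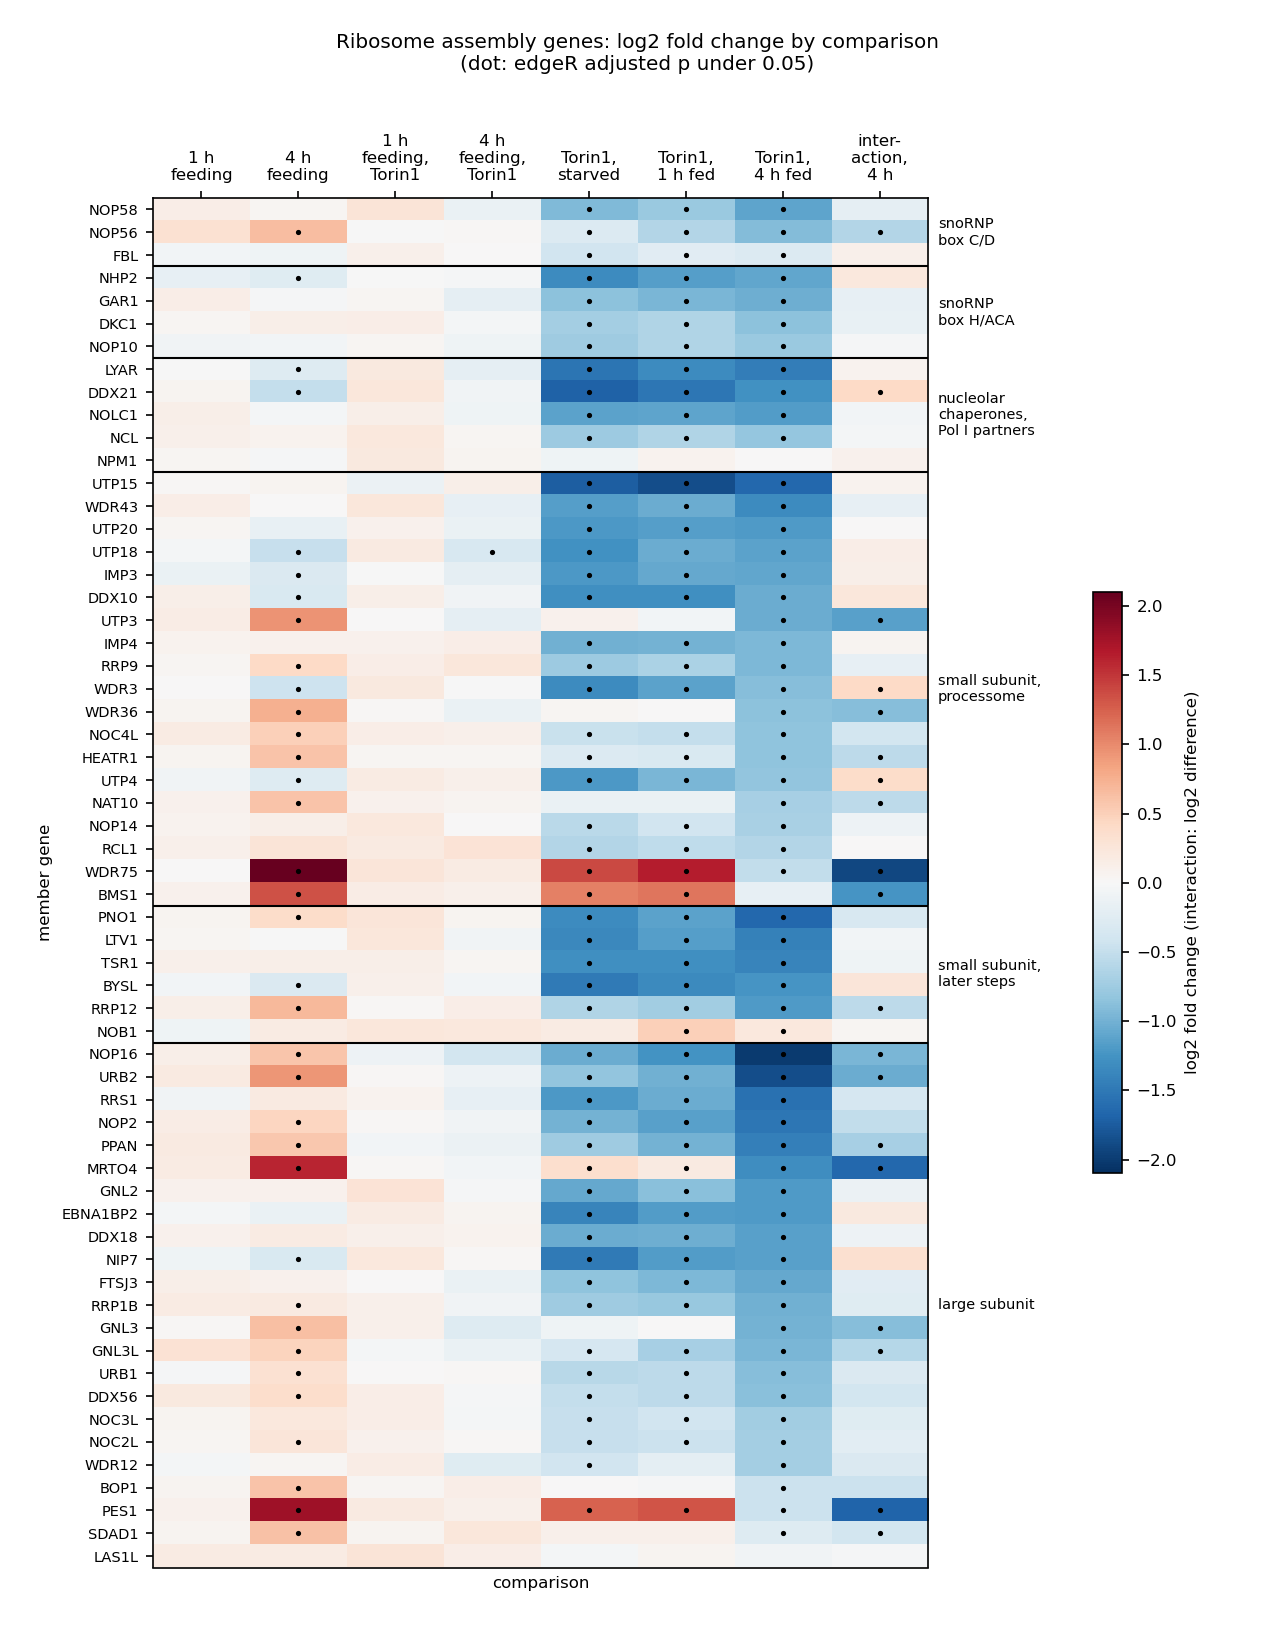
Log2 fold change of each of the 60 members (rows, grouped by role and sorted by the change with Torin1 in 4 h fed cells) in 8 comparisons (columns); red is higher and blue lower, the last column is the difference between the effects of 4 h of feeding with and without Torin1, and a dot marks an edgeR adjusted p under 0.05. Blue with a dot fills most of the 3 Torin1 columns, the 2 columns of 1 h feeding hold no dot, and WDR75, PES1 and BMS1 are red with Torin1 in starved and 1 h fed cells.

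WDR75, a processome WD-repeat protein of the complex that is needed for RNA polymerase I transcription as well as for processing, changed most. Its level in replicates 1, 2 and 3 was 22.5, 24.98 and 23.2 CPM in starved cells, 26.9, 19.7 and 24.4 CPM after 1 h and 100.1, 102.1 and 98.2 CPM after 4 h. All 3 libraries at 4 h lay well above the 6 libraries at 0 h and 1 h, which overlapped each other. The log2 fold change at 4 h was 2.09 (SE 0.10, edgeR adjusted p = 9.745e-17), a 4.25-fold rise, and against 1 h it was 2.08. PES1 is part of the PeBoW complex, which acts on the 5.8S and 28S precursors. Its starved libraries held 75.02, 57.6 and 79.7 CPM and its 4 h fed libraries 240.3, 220.5 and 271.6 CPM. Its groups did not overlap, and it rose 3.45-fold (log2 fold change 1.79, SE 0.11, edgeR adjusted p = 4.251e-13). MRTO4, a large-subunit factor related to the ribosomal stalk protein RPLP0, had 43.3, 48.2 and 53.0 CPM when starved, 54.7, 56.0 and 53.0 CPM at 1 h and 138.8, 147.5 and 153.0 CPM at 4 h. It rose 3.04-fold at 4 h (log2 fold change 1.60, SE 0.09, edgeR adjusted p = 1.991e-15), again without overlap. URB2, a large-subunit factor, was at 84.6, 113.1 and 107.1 CPM in starved cells, 105.7, 120.8 and 120.8 CPM at 1 h and 182.3, 183.9 and 213.0 CPM at 4 h, a 1.90-fold rise at 4 h (log2 fold change 0.92, SE 0.10, edgeR adjusted p = 4.625e-09). Its starved and 1 h libraries overlapped, and the 4 h libraries stood apart from both.

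BMS1, the GTPase of the processome, rose by 1.33 on the log2 scale, and its level went from 57.5, 55.2 and 56.9 CPM to 137.5, 137.4 and 151.9 CPM. RCL1, the protein that BMS1 brings to the precursor, had a log2 fold change of 0.28 and was not called. Among the processome members of the complex that holds WDR75, HEATR1 rose by 0.61, whereas UTP4 fell by 0.27, and UTP15 (0.06) and WDR43 (0.00) were not called. Members of the neighbouring UTP-B complex also differed from one another: WDR36 rose by 0.75, while UTP18 fell by 0.49 and WDR3 fell by 0.44. Subunits of the same complex were thus called in opposite directions in both cases. Of the other processome members, UTP3 rose by 0.95, NAT10, which acetylates 18S rRNA, by 0.60, NOC4L by 0.49 and RRP9, a protein of the U3 snoRNP, by 0.41. IMP3 fell by 0.30, a call lost without starved replicate 3 (-0.25, edgeR adjusted p = 0.0802), the helicase DDX10 fell by 0.32, and NOP14 (0.12), IMP4 (0.08) and UTP20 (-0.16) were not called.

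Within the PeBoW complex the partners of PES1 differed from it: BOP1 rose by 0.60, and WDR12 had a log2 fold change of 0.05 and was not called. The nucleolar GTPases GNL3 and GNL3L rose by 0.63 and 0.47, and GNL2 (0.09) was not called. The other large-subunit members that rose were SDAD1 (0.61), NOP16 (0.58), PPAN (0.56), the rRNA methyltransferase NOP2 (0.45), DDX56 (0.36), URB1 (0.33), NOC2L (0.25) and RRP1B (0.18). The calls of NOP2 and RRP1B were lost in most of the 25 alternative fits, NOP2 in 17 (adjusted p of 0.0512 to 0.168) and RRP1B in 16 (0.0504 to 0.189). Without starved replicate 1 or 4 h fed replicate 3 the calls of DDX56, URB1 and NOC2L were lost as well, and that of DDX56 also without 4 h fed replicate 2 (log2 fold changes of 0.27 to 0.36 for DDX56, 0.25 to 0.26 for URB1 and, with a loss under DESeq2 size factors included, 0.17 to 0.20 for NOC2L). PPAN shares sequence with the read-through gene PPAN-P2RY11, so its count is uncertain. NIP7 was the single large-subunit member that fell, by 0.31. NOC3L (0.22), DDX18 (0.18), RRS1 (0.18), LAS1L (0.17), FTSJ3 (0.10) and EBNA1BP2 (-0.14) were not called.

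The members that fell were led by DDX21, an RNA helicase that works with RNA polymerase I and snoRNPs. Its level was 921, 944.6 and 962.6 CPM in starved cells and 630.4, 742.9 and 631.6 CPM after 4 h, without overlap, and it fell by 0.50 on the log2 scale (SE 0.09, edgeR adjusted p = 3.318e-05). UTP18 went from 191.4, 202.0 and 214.2 CPM to 144.5, 146.0 and 142.2 CPM, and WDR3 from 250.8, 253.8 and 281.8 CPM to 201.3, 191.3 and 188.6 CPM. In both, every 4 h library lay below every starved library. LYAR, a nucleolar zinc-finger protein, fell by 0.26, and BYSL, a small-subunit factor, fell by 0.31. NHP2 fell by 0.25, a call lost without starved replicate 3 or 4 h fed replicate 2 (-0.22 to -0.16). NOP56 was the single snoRNP protein that rose, by 0.65, from 330.1 CPM (median of starved libraries) to 543.3 CPM. In the later small-subunit steps RRP12 rose by 0.69 and PNO1 by 0.39, and NOB1 (0.17), TSR1 (0.13) and LTV1 (-0.02) were not called. NPM1 (-0.03), NCL (0.08), NOLC1 (-0.04), NOP58 (0.05), FBL (-0.09), DKC1 (0.12), GAR1 (-0.03) and NOP10 (-0.05) were not called either.

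Between 1 h and 4 h of feeding 20 members rose, against 21.7% of all genes tested, and 8 fell, against 18.1%. The 4 h against 1 h contrast shares the 4 h libraries with the contrast against starvation, so it adds no separate evidence for the 4 h level. Its extremes were again WDR75 (2.08) and DDX21 (-0.56). The falls of UTP4 and NIP7 in this contrast were lost in 14 and 9 of the 25 alternative fits. With DESeq2 size factors 22 members rather than 25 were higher at 4 h against starvation, and NOC2L, NOP2 and RRP1B were lost. Of all 16414 genes tested, 3470 rather than 3801 were higher with these factors.

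Torin1 lowered most members in every feeding state. In starved cells 47 of 60 members were lower, against 29.6% of all genes tested, and 4 were higher, against 33.9%. In 1 h fed cells 46 were lower, against 29.9%, and 5 higher, against 33.2%. In 4 h fed cells 56 were lower, against 28.6%, and 1 higher, against 27.4%. The median log2 fold change of the members was -0.75 in starved, -0.76 in 1 h fed and -0.998 in 4 h fed cells, whereas over all genes it was 0.09, 0.06 and 0.02. Called and at least 2-fold lower were 24 members in starved cells, against 9.34% of all genes tested, 22 in 1 h fed cells, against 9.28%, and 30 in 4 h fed cells, against 6.15%. These 3 contrasts share no libraries, and 46 members were lower in all 3, against 19.6% of all genes tested. Of these 46, NOP56 and GNL3L were not called in starved cells without starved replicate 3 (-0.19 and -0.27). FBL was not called in 1 h fed cells without replicate 3 of the 1 h fed Torin1 group (-0.19). With total counts the calls of NOP56, GNL3L and HEATR1 were lost in starved cells and that of FBL in 1 h and 4 h fed cells. Scaled by total counts alone, the medians over all genes moved to 0.23, 0.17 and 0.19. Those of the members moved to -0.62, -0.64 and -0.84. With that scaling 44, 45 and 53 members were lower and 7, 7 and 2 higher. Of all 16414 genes tested, 4066, 4184 and 3454 were lower and 6492, 6228 and 5766 higher. That scaling also moved the share of called genes of the whole table that were higher in 4 h fed cells from 49% to 62.5%, and no called member changed sign. In each feeding state 5 of 9 HEK-293 line markers were higher with Torin1, as given above, and their part in the result was not tested.

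**Figure D3:**
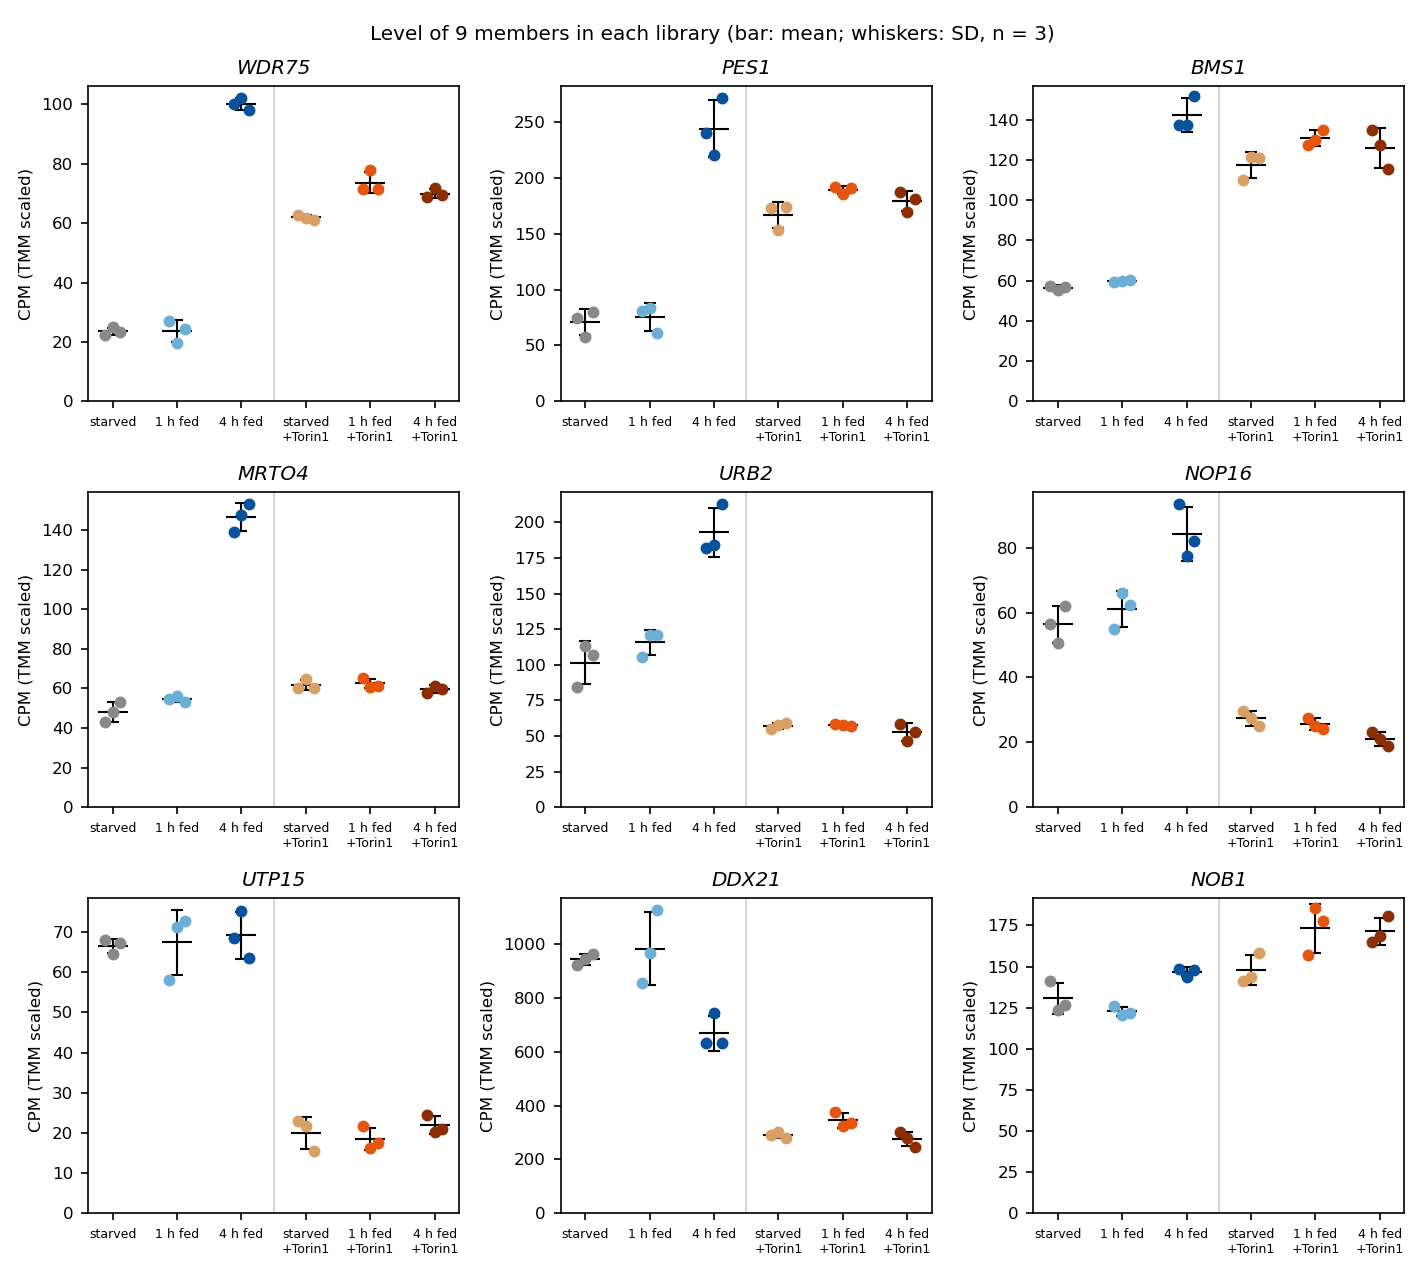
Level of 9 members in each of the 18 libraries (y axis, TMM-scaled CPM from 0) by group (x axis); each point is a library, the bar is the mean and the whiskers the SD of 3 libraries, and the grey line divides the groups without Torin1 from those with it. WDR75, PES1 and BMS1 are higher with Torin1 than without it in starved and 1 h fed cells, URB2, NOP16, UTP15 and DDX21 are lower with Torin1 in all 3 states, and MRTO4 stays between 57.5 and 65.4 CPM in the 9 libraries with Torin1.

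UTP15, a subunit of the same processome complex as WDR75, had the largest fall in starved and 1 h fed cells. Without Torin1 it stood at 67.9, 64.4 and 67.2 CPM in starved, 58.1, 71.3 and 72.8 CPM in 1 h fed and 68.5, 75.3 and 63.6 CPM in 4 h fed cells. With Torin1 it stood at 23.0, 21.6 and 15.5 CPM, then 21.6, 16.2 and 17.6 CPM, then 24.6, 20.3 and 21.0 CPM. The 9 libraries with Torin1 lay below the 9 without it, and UTP15 was not called for feeding in either set. UTP15 fell by 1.72 in starved cells (SE 0.13, edgeR adjusted p = 8.392e-13), by 1.87 at 1 h (SE 0.13, edgeR adjusted p = 1.84e-13) and by 1.65 at 4 h (SE 0.13, edgeR adjusted p = 4.019e-12). DDX21 stood at 291.3, 302.1 and 279.9 CPM in starved cells with Torin1, a fall of 1.70 (SE 0.09, edgeR adjusted p = 7.865e-16). At 1 h it stood at 374.3, 324.2 and 335.0 CPM with Torin1 and at 855.9, 964.5 and 1126 CPM without, and it fell by 1.51. The fall in 4 h fed cells was 1.28, to 301.2, 279.6 and 246.8 CPM. LYAR went from 151.2, 160.1 and 164.0 CPM in starved cells to 57.2, 54.4 and 53.3 CPM with Torin1, a fall of 1.53 (SE 0.08, edgeR adjusted p = 5.627e-16). BYSL, which binds the nascent small subunit until late in its maturation, went from 115.0, 130.1 and 120.7 CPM in 1 h fed cells to 48.1, 46.3 and 50.3 CPM, a fall of 1.34 (SE 0.09, edgeR adjusted p = 1.35e-13).

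In 4 h fed cells the largest falls were in large-subunit factors and in UTP15. NOP16 stood at 93.4, 77.4 and 82.0 CPM without Torin1 and at 23.3, 21.0 and 18.8 CPM with it, 4.01-fold lower (log2 fold change -2.00, SE 0.11, edgeR adjusted p = 7.2e-15). It was lower in the other states too, by 1.04 in starved cells (29.6, 27.7 and 25 CPM with Torin1) and by 1.25 at 1 h (27.6, 25.1 and 24.2 CPM). URB2 stood at 58.8, 46.6 and 52.9 CPM with Torin1 at 4 h, 3.66-fold lower than without it (log2 fold change -1.87, SE 0.10, edgeR adjusted p = 3.625e-15). In starved cells with Torin1 URB2 was at 54.9, 57.8 and 58.9 CPM, a fall of 0.83, and at 1 h it was at 58.3, 57.9 and 57.3 CPM, a fall of 1.00. The 9 URB2 libraries with Torin1 thus kept to 46.6 to 58.9 CPM while those without it rose at 4 h.

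Each role held mostly members that fell with Torin1 in 4 h fed cells. All 3 box C/D proteins were lower, with NOP58 at -1.11, NOP56 at -0.91 and FBL, the methyltransferase of the complex, at -0.29. All 4 box H/ACA proteins were lower, between -1.09 for NHP2 and -0.78 for NOP10, with the pseudouridine synthase DKC1 at -0.87. Of the nucleolar chaperones and polymerase partners, LYAR (-1.45), DDX21 (-1.28), NOLC1 (-1.18) and NCL (-0.81) fell. NPM1 was not called with Torin1 in any state with TMM scaling, with log2 fold changes of -0.09, 0.07 and 0.00 (SE 0.07 in each) and means of 2530 to 2908 CPM with Torin1 and 2634 to 2774 CPM without. Scaled by total counts it was called higher in 1 h fed (0.18) and 4 h fed cells (0.17). NPM1 has processed copies elsewhere in the genome, so its count is uncertain. Of the processome members 18 of 19 fell, by a median of 0.89, with UTP15, WDR43 (-1.32), UTP20 (-1.19), UTP18 (-1.13), IMP3 (-1.09), DDX10 (-1.05) and UTP3 (-1.05) at least 2-fold lower. BMS1, at -0.18, was the one processome member not called, and it was called lower in 5 of the 25 alternative fits. In the later small-subunit steps PNO1 (-1.64), LTV1 (-1.41), TSR1 (-1.38), BYSL (-1.24) and RRP12 (-1.19) fell.

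NOB1, the nuclease that makes the 3′ end of mature 18S rRNA, went the other way and was the single member higher with Torin1 in 4 h fed cells. It stood at 148.8, 143.9 and 147.8 CPM without Torin1 and at 164.7, 168.7 and 180.6 CPM with it (log2 fold change 0.22, SE 0.08, edgeR adjusted p = 0.01724). Without replicate 3 of the 4 h fed Torin1 group the value was 0.18 and no longer called (edgeR adjusted p = 0.0867). At 1 h NOB1 rose by 0.50, from 126.1, 120.7 and 121.6 CPM to 156.8, 185.6 and 177.7 CPM. In starved cells its value was 0.18 and was not called, though it was called higher in 6 of the 25 alternative fits. PNO1, the partner that NOB1 binds on the precursor, fell in all 3 states, by 1.31, 1.12 and 1.64.

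Among the 23 large-subunit members 22 fell with Torin1 in 4 h fed cells, by a median of 1.00. After NOP16 and URB2 came RRS1 (-1.56), a factor needed to bring 5S rRNA into the particle, NOP2 (-1.52), PPAN (-1.44), MRTO4 (-1.30), GNL2 (-1.19), EBNA1BP2 (-1.19), DDX18 (-1.15), NIP7 (-1.15), FTSJ3 (-1.08), an rRNA methyltransferase, and RRP1B (-1.005). Smaller falls were seen for GNL3 (-0.99), GNL3L (-0.96), URB1 (-0.89), DDX56 (-0.88), NOC3L (-0.74), NOC2L (-0.71), WDR12 (-0.71), BOP1 (-0.45), PES1 (-0.45) and SDAD1 (-0.27). The SDAD1 call was lost without 4 h fed replicate 2 (-0.22), without replicate 3 of the 4 h fed Torin1 group (-0.22), with no filter on low counts and with total counts, and that of BOP1 with total counts. LAS1L, which is needed for cutting the second internal spacer, had log2 fold changes of -0.05, 0.05 and -0.07 with Torin1 in the 3 states (SE 0.08 in each) and was not called in any.

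Against this general fall, WDR75, PES1 and BMS1 were higher with Torin1 when cells were starved or fed for 1 h. WDR75 stood at 62.9, 61.7 and 61.2 CPM in starved cells with Torin1, above all 3 starved libraries without it (log2 fold change 1.39, SE 0.10, edgeR adjusted p = 2.855e-13), and at 71.5, 77.9 and 71.6 CPM at 1 h (1.64, SE 0.10, edgeR adjusted p = 7.736e-15). At 4 h it stood at 68.8, 71.7 and 69.5 CPM, below all 3 libraries without Torin1, a fall of 0.52 (SE 0.09, edgeR adjusted p = 1.46e-05). The level with Torin1 was therefore 61.2 to 77.9 CPM in all 9 libraries, between the starved and the 4 h fed level. PES1 had the same order: 172.8, 153.0 and 173.6 CPM in starved cells with Torin1 (log2 fold change 1.24, edgeR adjusted p = 1.776e-10), 191.9, 185.5 and 190.7 CPM at 1 h, where it stood at 81.2, 83.98 and 61.3 CPM without Torin1 (1.33), and 187.0, 169.4 and 180.9 CPM at 4 h (-0.45). BMS1 stood at 110.0, 121.4 and 121.0 CPM in starved cells with Torin1 (log2 fold change 1.06, edgeR adjusted p = 1.688e-12) and at 127.5, 130.1 and 135.0 CPM at 1 h, where it stood at 59.3, 59.9 and 60.4 CPM without Torin1 (1.13). At 4 h BMS1 was at 134.9, 127.3 and 115.3 CPM with Torin1 and was not called. BMS1 has near-identical pseudogene copies and PES1 overlaps TCN2 on the other strand, so both counts are uncertain. WDR75 overlaps no gene of the types counted.

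MRTO4 followed a similar course at a lower amplitude. With Torin1 it stood at 60.2, 64.7 and 60.01 CPM in starved, 65.4, 60.9 and 61.3 CPM in 1 h fed and 57.5, 61.4 and 59.6 CPM in 4 h fed cells. It was higher with Torin1 in starved cells by 0.36 (SE 0.09, edgeR adjusted p = 0.0007222) and lower in 4 h fed cells by 1.30. The difference at 1 h, 0.19 (edgeR adjusted p = 0.0499), was lost in 18 of the 25 alternative fits, for example with DESeq2 size factors (0.15, edgeR adjusted p = 0.132). MRTO4 overlaps EMC1 on the other strand, so its count is uncertain. WDR36, UTP3, GNL3, NAT10, SDAD1 and BOP1 were lower with Torin1 at 4 h and were not called in the other 2 states. For 5 of these 6 the difference in the effect of Torin1 between 4 h fed and starved cells was itself called, and for BOP1 it was not (-0.46, edgeR adjusted p = 0.0632), though it was called in 7 of the 25 alternative fits, with adjusted p of 0.00573 to 0.0394. The SDAD1 difference was lost in 3 of the 25, without starved replicate 2, without replicate 3 of the 4 h fed Torin1 group and with no filter (-0.37 to -0.32).

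Under Torin1, few members passed the threshold for feeding. At 1 h 0 of 60 were called by edgeR, against 0.402% of all genes tested, with 18 at an unadjusted p under 0.05 (11.1% of all genes), and DESeq2 called 1, LAS1L. Most values at 1 h were nevertheless slightly above 0: the median log2 fold change was 0.12, beside 0.02 over all genes, and 53 of 60 members lay above 0, beside 54% of all genes. The groups did not overlap for 24 members that lay higher at 1 h, against 14.2% of all genes, and for 0 that lay lower, against 8.42%. Of the genes of the whole table called at 1 h 68.2% were higher, and 47.4% with scaling by total counts. At 4 h 8 members had an unadjusted p under 0.05, without a share of all genes to set beside them. After adjustment 1 of 60 was lower, against 0.975%, and 0 were higher, against 0.829%. That member was UTP18, at 83.5, 83.9 and 83.3 CPM in starved and 73.8, 62.5 and 61.1 CPM in 4 h fed cells with Torin1 (log2 fold change -0.34, SE 0.08, edgeR adjusted p = 0.02185). Its call was lost without any 1 of 5 libraries (edgeR adjusted p of 0.0692 to 0.154). These were the 3 of the starved Torin1 group and replicates 2 and 3 of the 4 h fed Torin1 group. The members' range at 4 h was -0.38 for NOP16 to 0.28 for RCL1, with a median of -0.02. The marker members had log2 fold changes of 0.18 (WDR75), -0.05 (MRTO4) and -0.11 (URB2) at 4 h with Torin1.

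**Figure D4:**
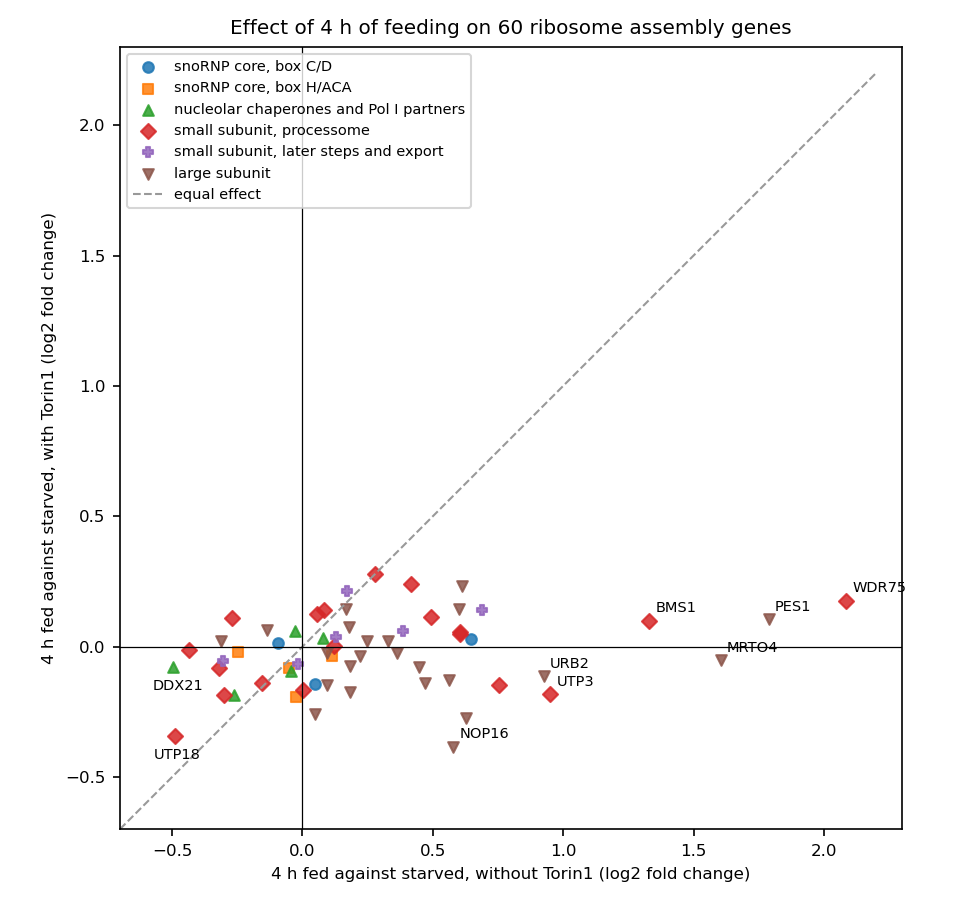
Log2 fold change between 4 h fed and starved cells without Torin1 (x axis) and with Torin1 (y axis) for the 60 members, with the symbol giving the role and the dashed line marking equal effects. Without Torin1 the values spread from -0.50 to 2.09, and with Torin1 they keep to -0.38 to 0.28.

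The effects of 4 h of feeding with and without Torin1 come from separate libraries and can be set side by side. The 25 members that rose without Torin1 had a median log2 fold change of 0.60 there, which is fixed by their choice, and of 0.02 with Torin1, where 0 were called and 14 lay above 0. The 10 that fell without Torin1 had medians of -0.31 and -0.07, and 1 of them, UTP18, was called with Torin1. The difference between the effects, tested as an interaction, was called for 19 of 60 members, against 25.8% of all genes tested, a share of the members (31.7%) not far above that background. In 16 members the effect of feeding was lower with Torin1, against 16% of genes, and in 3 it was higher, against 9.74%. The largest differences were in WDR75 (-1.91, SE 0.13, edgeR adjusted p = 3.855e-12), PES1 (-1.68, SE 0.15) and MRTO4 (-1.66, SE 0.12), followed by BMS1 (-1.23), UTP3 (-1.13), URB2 (-1.04), NOP16 (-0.96), GNL3 (-0.90) and WDR36 (-0.90). Also called were PPAN (-0.69), whose call was lost in 12 of the 25 alternative fits (adjusted p of 0.0509 to 0.0968), NOP56 (-0.62), GNL3L (-0.61), HEATR1 (-0.56), RRP12 (-0.55), NAT10 (-0.55) and SDAD1 (-0.38). Of the members that fell with feeding, WDR3, DDX21 and UTP4 had positive differences that were called. The difference for NIP7 (0.34) was not called, though it was called in 8 of the 25 alternative fits.

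WDR3 stood at 104.1, 110.3 and 101.4 CPM in starved and 106.7, 104.3 and 102.0 CPM in 4 h fed cells with Torin1, so the fall seen without Torin1 was not there, and the difference was 0.42 (SE 0.11, edgeR adjusted p = 0.005882). DDX21 had the same size of difference, 0.42 (SE 0.13, edgeR adjusted p = 0.01316). UTP4 went from 150.1, 151.4 and 152.3 CPM to 129.9, 127.4 and 119.4 CPM without Torin1 and from 62.9, 68.6 and 65.7 CPM to 76.5, 70.3 and 65.9 CPM with it, a difference of 0.38 (SE 0.12, edgeR adjusted p = 0.01518). Without replicate 1 of the 4 h fed Torin1 group the DDX21 and UTP4 differences were 0.35 and 0.32 and no longer called (edgeR adjusted p = 0.0571 and 0.0604). At 1 h the interaction was called for 0 members by edgeR, against 0.067% of all genes tested, and for 0 by DESeq2. At an unadjusted p under 0.05 there were 4 members, again without a share of all genes.

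A further 77 ribosome assembly genes that are not among the 60 gave similar counts, and all were tested. After 4 h of feeding 33 were higher, against 23.2% of all genes tested, and 13 lower, against 19.1% (median 0.15). The largest rises were in RRP8, a nucleolar methyltransferase-like protein (1.78, SE 0.13), and NVL, an AAA ATPase that remodels large-subunit particles (1.44, SE 0.11). UTP11 (-0.60, SE 0.10) and NOL9 (-0.51, SE 0.10), a kinase that works with LAS1L, fell most. Torin1 lowered 56 of the 77 in starved cells, against 29.6% of all genes tested, and raised 12, against 33.9% (median -0.70). In 1 h fed cells 54 were lower, against 29.9%, and 11 higher, against 33.2% (median -0.65). In 4 h fed cells 68 were lower, against 28.6%, and 2 higher, against 27.4% (median -0.84). DCAF13 (-1.48, SE 0.09) and RPF2 (-1.42, SE 0.10), which brings the 5S particle into the large subunit, fell most in 4 h fed cells, and NOP53 (0.60, SE 0.07) and NSA2 (0.28, SE 0.08) were the ones that rose. These counts were not tested against those of the 60 members.

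The isoform table asked which transcripts carried the changes. Of the 60 members 47 had at least 2 isoforms that could be tested, MRTO4, URB2 and BMS1 not among them. In the edgeR test of isoform use 4 members were called for 4 h of feeding, against 3.4% of 10700 genes. With Torin1 7 members were called in starved cells, against 15.4%, 12 in 1 h fed cells, against 16.4%, and 10 in 4 h fed cells, against 11.6%. As shares of the 47 members these counts were 8.51%, 14.9%, 25.5% and 21.3%. The count of 10 in 4 h fed cells fell to 4 without replicate 1 and to 6 without replicate 2 of the 4 h fed Torin1 group. The count of 4 for 4 h of feeding fell to 1 without starved replicate 1 or without 4 h fed replicate 2 or 3. It fell to 2 without starved replicate 2, 4 h fed replicate 1, starved Torin1 replicate 3, 1 h fed Torin1 replicate 2 or 3, or 4 h fed Torin1 replicate 3. WDR75 was not called in any comparison: isoform WDR75-201 held 90.2% to 94.3% of its counts in the group means, so its rise was carried by this 1 protein-coding transcript, from 21.2 CPM ± 0.332 (SD, n = 3) in starved to 94.4 CPM ± 2.25 in 4 h fed cells.

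NOP56 had the strongest change of isoform use with Torin1 in starved cells (edgeR adjusted p = 2.759e-08) and 1 h fed cells (edgeR adjusted p = 3.474e-12). Its protein-coding isoform NOP56-201 held 40.9% ± 1.06 of NOP56 counts in starved, 37.0% ± 0.866 in 1 h fed and 52.5% ± 3.26 in 4 h fed cells (SD, n = 3). With Torin1 it held 56.1% ± 1.92, 58.4% ± 0.548 and 65.0% ± 1.20, above every library of the same feeding state without it. The non-coding NOP56-205, a processed transcript of the same gene, went the other way, from 7.53% ± 0.489 to 0.780% ± 0.773 with Torin1 in starved, from 9.64% ± 0.585 to 1.09% ± 0.136 in 1 h fed and from 4.78% ± 1.84 to 1.15% ± 0.556 in 4 h fed cells. NOP56 as a gene was lower with Torin1 in all 3 states. In starved cells, however, the mean level of NOP56-201 was higher with Torin1, at 157.5 CPM against 141.1 CPM without. At 4 h the mean level of NOP56-201 was lower, at 186.8 CPM with Torin1 against 282.6 CPM without. These differences in isoform level were not tested.

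**Figure D5:**
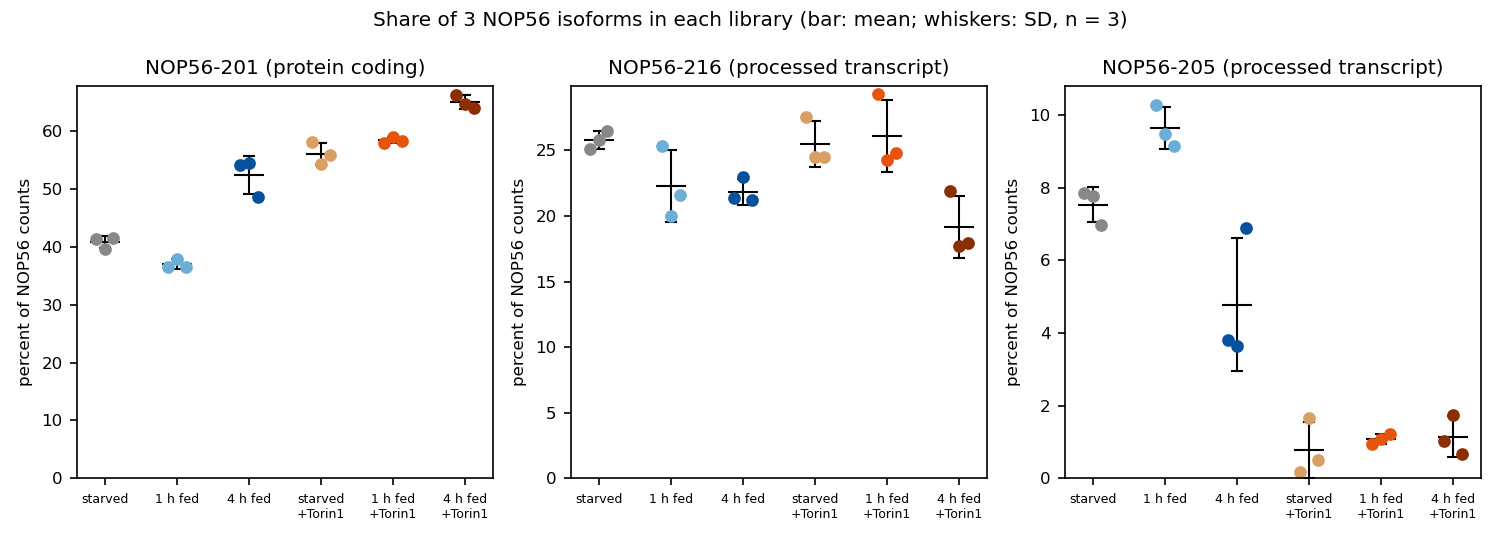
Percent of NOP56 counts (y axis, from 0) held by 3 of its isoforms in each library, by group; each point is a library, the bar is the mean and the whiskers the SD of 3 libraries. NOP56-201 lies higher and NOP56-205 lower with Torin1 than without it in each feeding state, and NOP56-216 overlaps between libraries with and without Torin1 in each state.

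DKC1 was the second member by its adjusted p in starved cells (edgeR adjusted p = 1.124e-05) and in 1 h fed cells (edgeR adjusted p = 3.228e-07). Its main isoform DKC1-201 held 89.5% of DKC1 counts in starved cells and 96.3% with Torin1, and the minor coding isoform DKC1-213 went from 7.50% ± 0.202 to 2.33% ± 1.21. In 1 h fed cells DKC1-213 went from 8.26% ± 1.14 to 2.39% ± 0.199, and after 4 h of feeding without Torin1 it was at 3.26% ± 0.439. In 4 h fed cells the members with the smallest adjusted p for Torin1 were GAR1 and NAT10. NAT10-205 was listed at 0 in all 9 libraries with Torin1 and in 1 starved library, and at 7.29 to 16.8 CPM in the 4 h fed libraries without it. GAR1-201 was listed at 0 in all 1 h and 4 h fed libraries without Torin1, in 1 starved library and in 1 of the 4 h fed Torin1 libraries. For 4 h of feeding GAR1 (edgeR adjusted p = 0.003048) and LAS1L (edgeR adjusted p = 0.01109) came first, and LAS1L-203 went from 12.7% ± 6.72 of LAS1L counts in starved to 5.08% ± 1.17 in 4 h fed cells. Estimated counts of isoforms that share most of their sequence can be set to 0 by the estimation, so these zeros are uncertain.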

How the data were processed

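RNA was sequenced from 18 libraries of HEK-293E cells in 6 groups of 3. The authors deposited gene-level expected counts (read counts estimated per gene, 3.32% of them not whole) and isoform-level counts as whole numbers, neither normalised. STAR, RSEM and DESeq2 are named, without versions, per the submitters' processing notes. The labels name a C. elegans build, whereas the identifiers are human Ensembl ones, so the human build and annotation remain unstated in the sources used here. A gene name table gave symbols for 60295 gene identifiers and GENCODE release 29 for another 309, and 205950 of 227368 isoforms matched that release (98.9% of isoform counts). Gene counts were rounded, filtered with filterByExpr (minimum count 10, 16414 genes left) and scaled by TMM. The edgeR 4.0.16 model (R 4.3.3) had 6 group means and robust quasi-likelihood F tests. It left 12 residual degrees of freedom, and the biological coefficient of variation was 10.6%. Members were called at a Benjamini-Hochberg adjusted p under 0.05, computed over all genes tested. Isoform use was tested with diffSpliceDGE over 48663 isoforms of 10700 genes. Both scripts were tested on simulated data.

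The 60 members, the 77 other assembly genes and the marker lists were chosen with earlier results of these data known. Values in every library are given for WDR75, MRTO4 and URB2 and for the 3 called members with the largest rise and the largest fall (groups not overlapping, except for the interaction) in 4 h feeding, each Torin1 comparison and the interaction at 4 h. Every called member is named for 1 h feeding and feeding under Torin1, and others by their log2 fold change. Alternatives were DESeq2 1.42.0 size factors and Wald test, total counts, no filter, a minimum count of 30, only the groups compared, the replicate number as a block, and each library left out.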

Additional observations from a re-analysis of the deposited data

Results flagged for a closer look

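For 19 members the effect of 4 h of feeding on the RNA level differed between cells without and with Torin1 by a test of the difference itself (edgeR interaction, adjusted p under 0.05). That is 31.7% of the 60 members, beside 25.8% of all genes tested. The log2 effect of feeding was lower with Torin1 for 16 of them. The difference was -1.91 for WDR75, -1.68 for PES1, -1.66 for MRTO4, -1.23 for BMS1, -1.13 for UTP3, -1.04 for URB2 and -0.96 for NOP16. It was -0.90 for GNL3, -0.90 for WDR36, -0.69 for PPAN, -0.62 for NOP56, -0.61 for GNL3L, -0.56 for HEATR1, -0.55 for RRP12, -0.55 for NAT10 and -0.38 for SDAD1. The remaining 3, UTP4 (0.38), DDX21 (0.42) and WDR3 (0.42), fell with feeding without Torin1 and had positive differences. The call of PPAN was lost in 12 of the 25 alternative fits.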

How the results depend on the processing

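The counts of called members stayed within 1.5 times the reported count under the planned settings, with these exceptions. For 1 h of feeding 0 members were called as reported, 1 (NOP56) with no filter on low counts, and 0 to 3 when 1 library was left out. For 1 h of feeding under Torin1 the DESeq2 Wald test called 1 member (LAS1L), and for 4 h of feeding under Torin1 a fit of only the groups compared called 2 members in place of 1. With 1 library left out, the count for 4 h of feeding ran from 31 to 36, for 4 h against 1 h from 25 to 29, for Torin1 from 49 to 52 in starved, 49 to 51 in 1 h fed and 55 to 58 in 4 h fed cells, for 4 h of feeding under Torin1 from 0 to 1 and for the interaction at 4 h from 17 to 24. For isoform use it ran from 1 to 3 for 4 h of feeding and, with Torin1, from 5 to 7 in starved, 9 to 13 in 1 h fed and 4 to 11 in 4 h fed cells. No called member changed sign under any setting run. Over all comparisons of gene counts the members had 242 calls, of which 211 held in all 25 alternative fits and 31 were lost in at least 1. Lost most often were MRTO4 for Torin1 in 1 h fed cells (18), NOP2 (17) and RRP1B (16) for 4 h of feeding, UTP4 for 4 h against 1 h (14) and PPAN for the interaction at 4 h (12). A further 36 values that were not called as reported were called in at least 1 fit. For the 49 values chosen by the naming rule alone, 1199 of 1225 alternative values stayed on the same side of the threshold, 26 lost the call and 0 reversed.

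Libraries of the same replicate number were at most weakly alike. Over 45 same-numbered pairs the correlation of deviations from the group means ran from -0.108 to 0.162 and exceeded 0.1 in 4. Its median was 0.038, beside -0.020 for pairs of different numbers from different groups. By the mean correlation with the libraries of each number in the other groups, 13 of 18 libraries were closest to their own number. That is a hint of pairing from the data and not the design. With the replicate block the counts were 0 for 1 h and 35 for 4 h of feeding, 30 for 4 h against 1 h, 51 in starved, 52 in 1 h fed and 57 in 4 h fed cells for Torin1, 0 and 1 for feeding under Torin1, and 0 and 22 for the interactions. For isoform use at 4 h of feeding the block gave 2 members in place of 4. Depth did not limit detection of any member, and 3 libraries per group limit the precision of each difference.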
